A study of Mus musculus with 8 samples.

Results

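The extracellular matrix is the meshwork of collagens, laminins, glycoproteins and proteoglycans that cells secrete around themselves. Integrins and syndecans anchor cells to it, and metalloproteinases of the MMP, ADAM and ADAMTS families cut it or shed proteins from the cell surface, held in check by the TIMP inhibitors. In the brain the matrix is poor in fibrillar collagen and rich in proteoglycans of the lectican family, and tenascin C and laminins are well-known components of the niche in which neural stem cells divide. The genes described here were chosen by name alone, as the protein-coding genes whose symbols begin like those of collagens, laminins, integrins, ADAM, ADAMTS, MMP and TIMP proteins, fibulins, fibronectin, tenascin C, thrombospondins, SPARC proteins, lecticans, testicans, syndecans, glypicans and the heparan sulphatases Sulf1 and Sulf2. The rule took 68 of the 8752 protein-coding genes, among 9140 genes in all. Genes of these families outside the 9140, such as the lectican Ncan, are not covered. The 68 are therefore not all the matrix genes these cells may express. Of the 68 members, 12 are integrins, 8 are ADAM proteases, 8 belong to the ADAMTS family, 7 are heparan sulphate proteoglycans or sulphatases and 15 are collagens or share the collagen prefix. Among those the name alone brought in, Col4a3bp encodes a ceramide transfer protein, Itgb3bp a kinetochore protein and Itgb1bp1 a cytoplasmic protein that binds an integrin tail, so these 3 are not matrix genes.

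The cells were hippocampal neural stem and progenitor cells from the dentate gyrus of mouse embryos, taken on embryonic day 18 according to the labels (the study's methods name a different embryonic day), grown with the growth factors EGF and FGF2 and collected on day 0 and on days 2, 4 and 8 after the factors were withdrawn. One genotype label is Kmt2d+/βgeo, a gene-trap allele of the histone methyltransferase gene Kmt2d written Mll2Gt(RRt024)Byg. The other is wild type, for which the labels give C57BL/6J as the strain while the growth protocol speaks of littermates that descend from C57BL/6J mothers and Kmt2d+/βgeo fathers. Each label has 1 droplet single-cell RNA library per day, so no comparison has a replicate. The study's methods speak of replicate cultures, without saying which culture a library holds, and the labels do not say how many embryos a culture came from. Cells are not replicates: no test was run, and genotype, embryo, culture and library cannot be told apart. The study's methods state that the cells were grown on Matrigel, a commercial basement membrane gel rich in laminin and collagen IV, and the labels state that trypsin lifted them off, so the cells met matrix that they had not made.

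Values are mean normalised counts per cell, where each cell's counts over the 9140 genes sum to 8707.14, and they derive from tags at the 3′ end of transcripts, so they do not grow with transcript length. The 8 libraries hold 2534 to 4900 cells and a median of 7926 to 23219 molecules (UMIs) per cell in all, of which a median of 3972 to 11229.5 fell on the 9140 genes used here, the shallowest being the day 8 library labelled Kmt2d+/βgeo. Thinning to 3000 molecules refers to these genes. Pairs of libraries share 0 to 10 cell barcodes, and the day 4 pair shares 2. A member was compared where its mean reached 0.1 in either library, and a difference of at least 2-fold (1 on the log2 scale) is called higher or lower. Levels of a member follow the order of days 0, 2, 4 and 8, ratios in parentheses are log2 ratios of library means, and where a ratio over time is given for both labels, Kmt2d+/βgeo comes first. Beside a comparison stands the share of all genes that meet the same rule, as the background against which the members' count is read. Counts of members under other settings of these comparisons carry no such share, because all genes were counted under the main setting alone.

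The library labelled Kmt2d+/βgeo on day 4 stands apart from the others under that label. Between the day 4 libraries 0% of all genes were higher and 0% were lower by 2-fold, and 0 of 44 members were, with members from -0.13 (Col4a2) to 0.27 (Mmp16) on the log2 scale. The SD of the members' log2 ratios was 0.0971 on day 4, against 0.746, 1.03 and 0.947 on days 0, 2 and 8. Col11a1, Col5a3, Fbln1 and Sulf1, far apart on other days, met on day 4 near the level of the wild-type series, as the text that follows shows. For other members, such as Lamc1, the day 4 level was also near a level of their own label on another day. Whether this library holds Kmt2d+/βgeo cells was not tested, so the day 4 comparison is given separately. It is 1 of the 8 comparisons run (the labels on each of the 4 days, and days 2 and 8 over day 0 under each label), and it adds no call to any count.

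Cell type markers moved with the day and partly with the label. Of the markers fixed, the 9140 genes hold 5 of 8 for astrocytes, 5 of 9 for progenitors and 2 of 10 for the oligodendrocyte lineage. Gfap, Nes and Sox10 are among those missing, so these sums rest on incomplete lists. The summed level of 5 astrocyte markers, most of it Apoe, was 16.2 and 8.20 on day 0 (Kmt2d+/βgeo label first), 214.3 and 158.1 on day 2, 252.3 and 233.0 on day 4, and 100.5 and 237.6 on day 8. Without Apoe the other 4 (S100b, Aldh1l1, Gja1 and Slc1a2) summed to 2.11 and 2.31 on day 0, 4.63 and 8.35 on day 2, 8.59 and 8.61 on day 4, and 5.81 and 7.56 on day 8. On day 2 each of the 4 was lower under the Kmt2d+/βgeo label, while Apoe was higher. The summed level of 5 progenitor markers (Fabp7, Vim, Pax6, Slc1a3, Sox9) was 79.7 and 69.9 on day 0, 141.7 and 118.3 on day 2, 90.0 and 86.7 on day 4, and 75.3 and 121.8 on day 8, where Vim stood at 43.8 and 86.6. The summed level of the oligodendrocyte lineage markers Olig2 and Cnp went from 6.38 and 9.30 on day 0 to 2.12 in both labels on day 8 (Olig2 from 5.53 and 8.09 to 1.48 and 0.911, Cnp from 0.847 and 1.21 to 0.637 and 1.21, after 2.13 and 2.19 on day 2). Of 8 neuronal markers fixed, 3 are among the 9140 genes and summed to 3.07 to 4.47 throughout, most of it Map2. Prox1 lay between 0.198 and 0.326. Rbfox3 rose from 0.00536 and 0.0174 on day 0 to 0.0356 and 0.0501 on day 2 and 0.170 and 0.176 on day 4, with 0.113 and 0.0472 on day 8. None of the markers fixed for endothelial cells, pericytes, meningeal fibroblasts, microglia or choroid plexus (0 of 8, 0 of 8, 0 of 8, 0 of 8 and 0 of 5) is among the 9140 genes, so these cells, which make much of the brain's collagen, were not analysed here. What part a shift in cell types has in any result was not tested, and fewer cells of a type and less RNA per cell cannot be told apart in a library mean.

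The members together made up 0.596% to 0.905% of the counts over the 9140 genes used here. Their summed level was 52.3 and 51.9 on day 0, 78.8 and 73.2 on day 2, 70.7 and 68.5 on day 4, and 64.1 and 63.2 on day 8, so the labels were close in this total at each time. Sparc, Sparcl1 and Bcan supplied between 27.5% (Kmt2d+/βgeo label, day 8) and 62.8% (wild-type label, day 2) of it. Without these genes the sums were 30.89 and 30.27 on day 0 and 30.85 and 27.19 on day 2 (Kmt2d+/βgeo label first). They were 27.99 and 26.71 on day 4 and 46.47 and 37.45 on day 8, so the remainder was less close on day 8. The median member stood at 0.268 over the 8 libraries, and 43 to 50 members reached 0.1 in a given library. In the heat map of the 68 members, most rows change along the time course, and in 17 rows the labels differ by at least 2-fold on day 0, 2 or 8 (28.8% of the 59 members compared, against 6.79% of all genes).

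**Figure D1:**
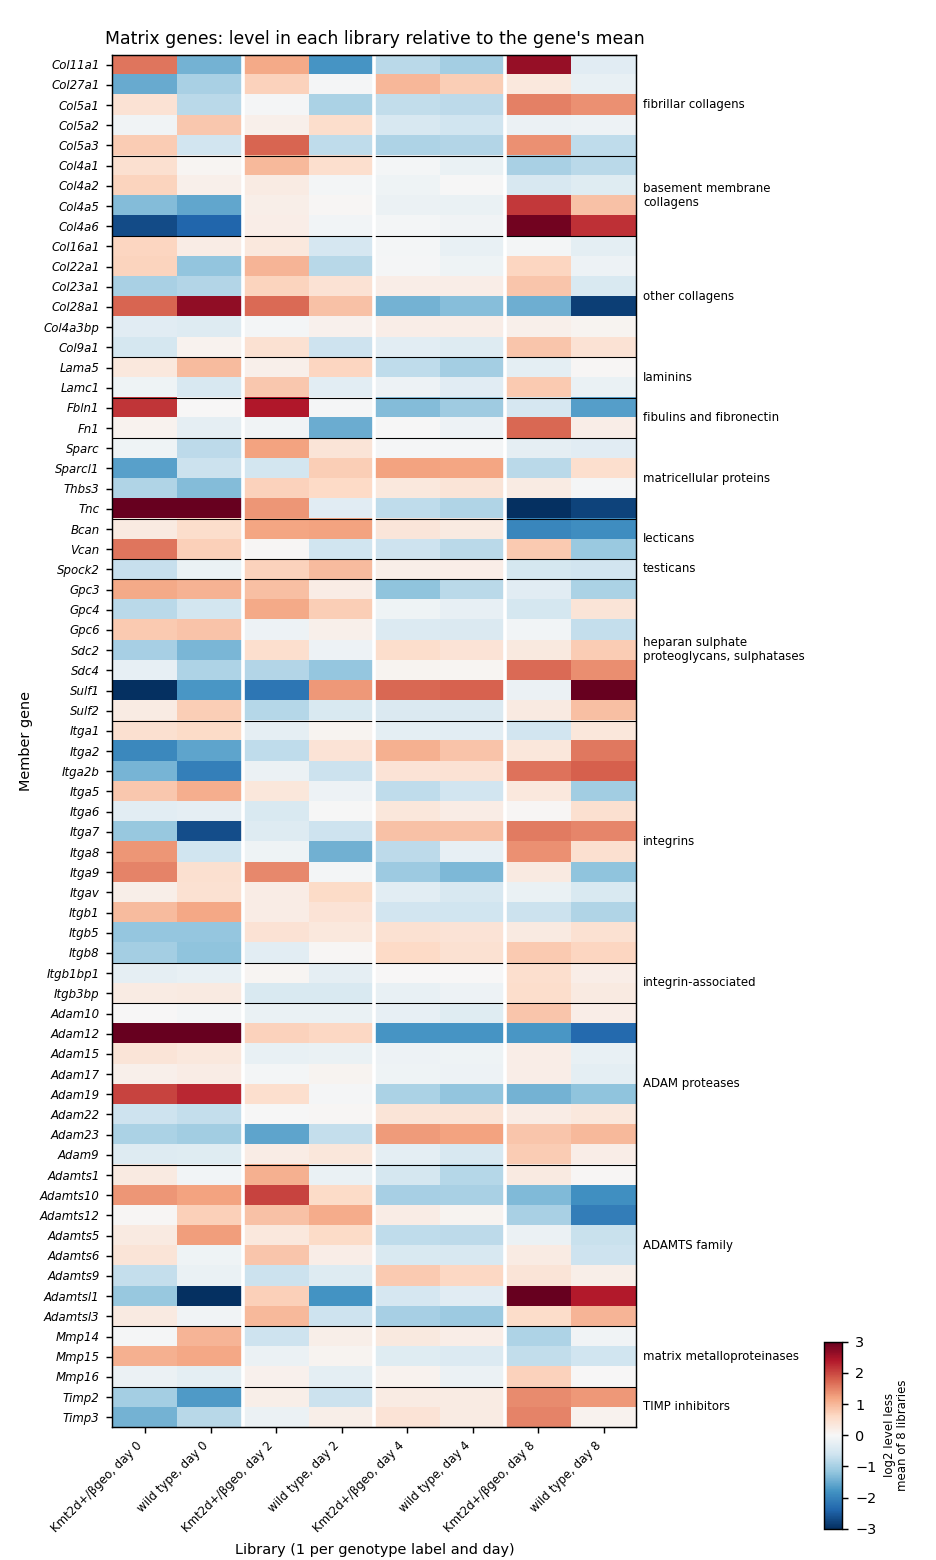
Level of each of the 68 members (rows, grouped by role) in each of the 8 libraries (columns, ordered by day with the Kmt2d+/βgeo label first), as the log2 mean normalised count less the gene's mean over the 8 libraries, with colours cut at -3 and 3. The day 4 columns look alike, while Col11a1, Col5a3, Fbln1 and Sulf1 differ between the labels on other days.

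Some of the members' promoters are shown because the genes start next to each other, or because they gave the deepest fall or the highest ratio in the results that follow. Collagen IV genes lie in head-to-head pairs. At the starts used here, Col4a1 and Col4a2 overlap at their 5′ ends, while a stretch lies between the starts of Col4a5 and Col4a6. The first bases of Col4a1 and Col4a2 are 21 bases apart, so their 300-base windows share 78 bases, while those of Col4a5 and Col4a6 are 1343 bases apart and share 0. Tnc had the deepest fall over time and Col11a1 the highest ratio between the labels (3.03), while the lowest ratio between the labels, that of Sulf1 (-3.47), was larger in size. Sequences run 5′ to 3′ on the gene's strand from 250 bases before to 50 after the first listed RefSeq start (GRCm38.p6), and capitals mark matches on either strand to the GC box GGGCGG, to TATAAA of the TATA box, to the letters TGGGAA bound by RBPJ, the DNA-binding partner of Notch, or to the AP-1 motif TGANTCA. Within a window no match overlaps another, while the GC box of Col4a1 and the GC box of Col4a2 after its start are the same bases, in the stretch that both windows share.
Col4a1, chr8:11312777-11313076, minus strand: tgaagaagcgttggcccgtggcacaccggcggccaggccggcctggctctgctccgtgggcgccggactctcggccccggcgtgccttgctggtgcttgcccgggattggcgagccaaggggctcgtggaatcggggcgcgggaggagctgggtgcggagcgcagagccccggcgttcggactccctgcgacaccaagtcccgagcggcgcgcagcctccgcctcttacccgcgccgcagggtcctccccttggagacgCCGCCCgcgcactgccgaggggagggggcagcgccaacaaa
Col4a2, chr8:11312555-11312854, plus strand: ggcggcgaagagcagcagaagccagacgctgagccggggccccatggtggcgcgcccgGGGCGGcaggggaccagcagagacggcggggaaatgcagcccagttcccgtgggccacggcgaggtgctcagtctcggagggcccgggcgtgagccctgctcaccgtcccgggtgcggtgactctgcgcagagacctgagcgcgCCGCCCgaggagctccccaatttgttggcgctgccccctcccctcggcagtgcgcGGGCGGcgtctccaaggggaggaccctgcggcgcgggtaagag
Col4a5, chrX:141475169-141475468, plus strand: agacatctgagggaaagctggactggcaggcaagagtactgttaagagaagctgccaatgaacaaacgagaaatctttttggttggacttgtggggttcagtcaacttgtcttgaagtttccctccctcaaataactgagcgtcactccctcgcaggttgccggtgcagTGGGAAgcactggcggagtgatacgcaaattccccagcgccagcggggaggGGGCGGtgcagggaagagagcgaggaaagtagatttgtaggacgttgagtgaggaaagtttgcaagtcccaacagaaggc
Col4a6, chrX:141474027-141474326, minus strand: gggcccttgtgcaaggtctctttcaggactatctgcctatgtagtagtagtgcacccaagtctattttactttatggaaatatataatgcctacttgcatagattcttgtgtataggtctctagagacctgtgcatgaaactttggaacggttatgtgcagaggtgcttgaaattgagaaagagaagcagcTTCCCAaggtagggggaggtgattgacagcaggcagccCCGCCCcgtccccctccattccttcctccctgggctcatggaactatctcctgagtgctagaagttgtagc
Tnc, chr4:64046966-64047265, minus strand: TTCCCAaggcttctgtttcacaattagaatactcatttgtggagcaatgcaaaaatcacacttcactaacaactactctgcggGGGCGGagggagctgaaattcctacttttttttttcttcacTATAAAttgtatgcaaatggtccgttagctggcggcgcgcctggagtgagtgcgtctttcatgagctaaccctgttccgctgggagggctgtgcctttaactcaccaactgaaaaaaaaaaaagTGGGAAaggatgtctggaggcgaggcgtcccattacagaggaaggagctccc
Col11a1, chr3:114030290-114030589, plus strand: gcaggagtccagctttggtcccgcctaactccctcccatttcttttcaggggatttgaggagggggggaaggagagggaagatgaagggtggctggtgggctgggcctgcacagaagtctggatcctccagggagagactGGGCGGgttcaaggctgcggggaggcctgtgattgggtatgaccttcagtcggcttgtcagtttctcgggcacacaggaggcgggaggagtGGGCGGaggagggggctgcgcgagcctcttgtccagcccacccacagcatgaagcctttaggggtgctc

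Col4a5 and Col4a6 each hold 1 GC box and 1 RBPJ match, whereas the GC-rich Col4a1 and Col4a2 windows hold 1 and 3 GC boxes, of which 1 is common to both, and no RBPJ match. The Tnc window holds a TATA box, 1 GC box and 2 RBPJ matches, and the Col11a1 window holds 2 GC boxes. Over the 50 members with a promoter in the RefSeq table, 68% held a GC box, 24% an RBPJ match, 6% a TATA box and 2% an AP-1 match. The shares over 7256 promoters of genes in the expression table were 67.7%, 22.3%, 5.83% and 3.91%, and over all 27025 promoters 35.9%, 25.5%, 14.2% and 7.93%. The members' promoters were thus like those of other genes measured here (median GC content 62.8% against 62%). A match is a run of letters and not a known binding site.

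After growth factor withdrawal, matrix genes moved in both directions. From day 0 to day 8, 18 of 55 members (32.7%) were higher under the Kmt2d+/βgeo label, against 19.0% of all genes, and 12 (21.8%) were lower, against 13.9% of all genes. Under the wild-type label 17 of 56 members (30.4%) were higher, against 16.3% of all genes, and 14 (25.0%) were lower, against 10.9% of all genes. On day 2 the counts were 13 of 51 members higher (25.5%, against 10.7% of all genes) and 6 lower (11.8%, against 6.74%) under the Kmt2d+/βgeo label. Under the wild-type label on day 2 they were 13 of 50 higher (26.0%, against 8.08%) and 8 lower (16%, against 5.56%). Members thus passed 2-fold over time more often than genes at large in all of these counts, which share their day 0 libraries between days 2 and 8. The members' median log2 ratio from day 0 to day 8 was 0.337 and 0.297 in the Kmt2d+/βgeo and wild-type labels, beside 0.107 and 0.0440 over all genes. With the median of all genes taken away the day 8 counts became 17 higher and 13 lower, and 16 higher and 14 lower. On day 2 the members' medians were 0.276 and -0.0485, beside 0.0546 and 0.00721.

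Lists of members past 2-fold over time were short (6 to 18 members for Kmt2d+/βgeo, 8 to 17 for wild type). The share of a list that also passed 2-fold under the other label lay above that of all genes for each Kmt2d+/βgeo list. For the wild-type lists this share was near that of all genes or a little below it. On lists this short these differences are not read as a pattern. From day 0 to day 8, 13 members were higher in both labels (72.2% of the Kmt2d+/βgeo list and 76.5% of the wild-type list), and 9 were lower in both (75.0% and 64.3%). Over all genes the matching shares were 67.4% and 78.8% for higher and 56.3% and 71.7% for lower. On day 2, 10 members were higher in both labels (76.9% of either list, against 59.4% and 79.1% over all genes) and 6 were lower in both (all 6 of the Kmt2d+/βgeo list and 75.0% of the wild-type list, against 64.0% and 78.3% over all genes). No member passed 2-fold in opposite directions in the labels on day 2 or on day 8. In the plot of day 8 against day 0, the points lie along the diagonal from Tnc at the bottom to Col4a6 and Adamtsl1 at the top.

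**Figure D2:**
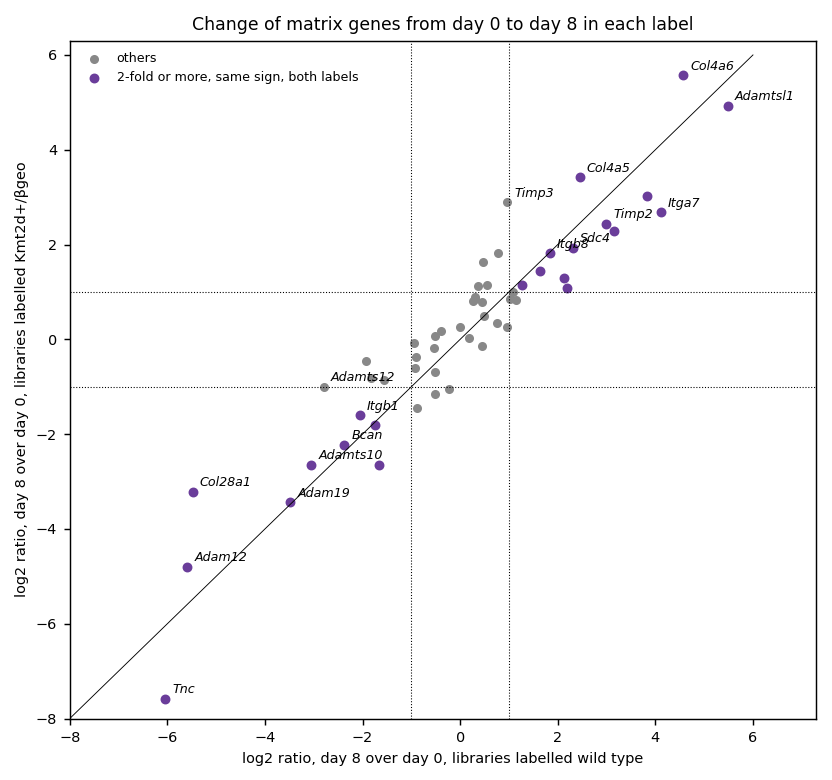
Log2 ratio of mean normalised counts, day 8 over day 0, for the 54 members compared in both labels, with the wild-type label on the horizontal axis and the Kmt2d+/βgeo label on the vertical axis. Purple points are the 22 members past 2-fold (dotted lines) with the same sign in both labels, and the solid line marks equal ratios; Timp3 lies well above it.

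Matricellular proteins sit in the matrix and tune adhesion and signalling without bearing load. Tenascin C (Tnc, ENSMUSG00000028364, GRCm38 chr4:63959785-64047015), which surrounds dividing neural stem cells, had the deepest fall of all members. Tnc stood at 2.25, 0.384, 0.0896 and 0.0117 on days 0, 2, 4 and 8 under the Kmt2d+/βgeo label and at 1.46, 0.120, 0.0821 and 0.0222 under the wild-type label. In both labels each later day was lower than the one before. Tnc fell by 2.55 and 3.61 on the log2 scale to day 2 and by 7.58 and 6.04 to day 8, where 24 and 61 molecules were left in the whole library against 14016 and 9514 on day 0. The labels differed on day 2, when the level was higher under Kmt2d+/βgeo (1.68).

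Sparc, a collagen-binding glycoprotein, was the most abundant member on average, with 11.5, 28.7, 12.2 and 10.4 on the 4 days under the Kmt2d+/βgeo label and 7.21, 16.4, 12.1 and 9.89 under the wild-type label. It peaked on day 2 in both, rising by 1.32 and 1.19 from day 0, and was back near its day 0 level on day 8. Its relative Sparcl1 (hevin), an astrocyte product that promotes synapse formation (chr5:104079111-104113733), stood at 3.27, 6.87, 23.4 and 5.82 under the Kmt2d+/βgeo label and at 6.53, 16.8, 23.0 and 14.3 under the wild-type label. Sparcl1 rose to day 2 in both labels (1.07 and 1.37) and was highest on day 4, when the libraries were level. It was lower under the Kmt2d+/βgeo label on day 2 (-1.29) and day 8 (-1.30), and just short of 2-fold lower on day 0 (-0.995). The log2 ratio of the summed molecules on day 8 was -1.32, from -1.35 to -1.28 (exact 95% interval, which covers counting error alone). The sum of the 4 astrocyte markers other than Apoe was also lower under the Kmt2d+/βgeo label on days 0, 2 and 8, although S100b on day 0 and Slc1a2 on day 8 were higher, and Apoe was lower on day 8 and higher on days 0 and 2. The part of these cells in the Sparcl1 difference was not tested. Thbs3, a thrombospondin, rose in both labels to day 2 (1.59 and 1.91) and was still higher on day 8 (1.15 and 1.27).

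The lecticans are the chondroitin sulphate proteoglycans that bind hyaluronan in brain matrix. Brevican (Bcan) stood at 6.61, 12.4, 7.15 and 1.42 on days 0, 2, 4 and 8 under the Kmt2d+/βgeo label and at 7.91, 12.7, 6.69 and 1.52 under the wild-type label. Its highest level was on day 2 in both, short of 2-fold over day 0. From day 0 to day 8 it fell by 2.22 and 2.38 on the log2 scale. Versican (Vcan) stood at 0.787, 0.265, 0.170 and 0.450 under the Kmt2d+/βgeo label and 0.423, 0.171, 0.149 and 0.119 under the wild-type label. It fell to day 2 in both labels (-1.57 and -1.31) and was higher again on day 8 in the Kmt2d+/βgeo library, 1.91 above the wild-type library. The testican Spock2, a secreted proteoglycan, rose to day 2 in both (1.38 and 1.13) and was within 2-fold of day 0 on day 8.

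**Figure D3:**
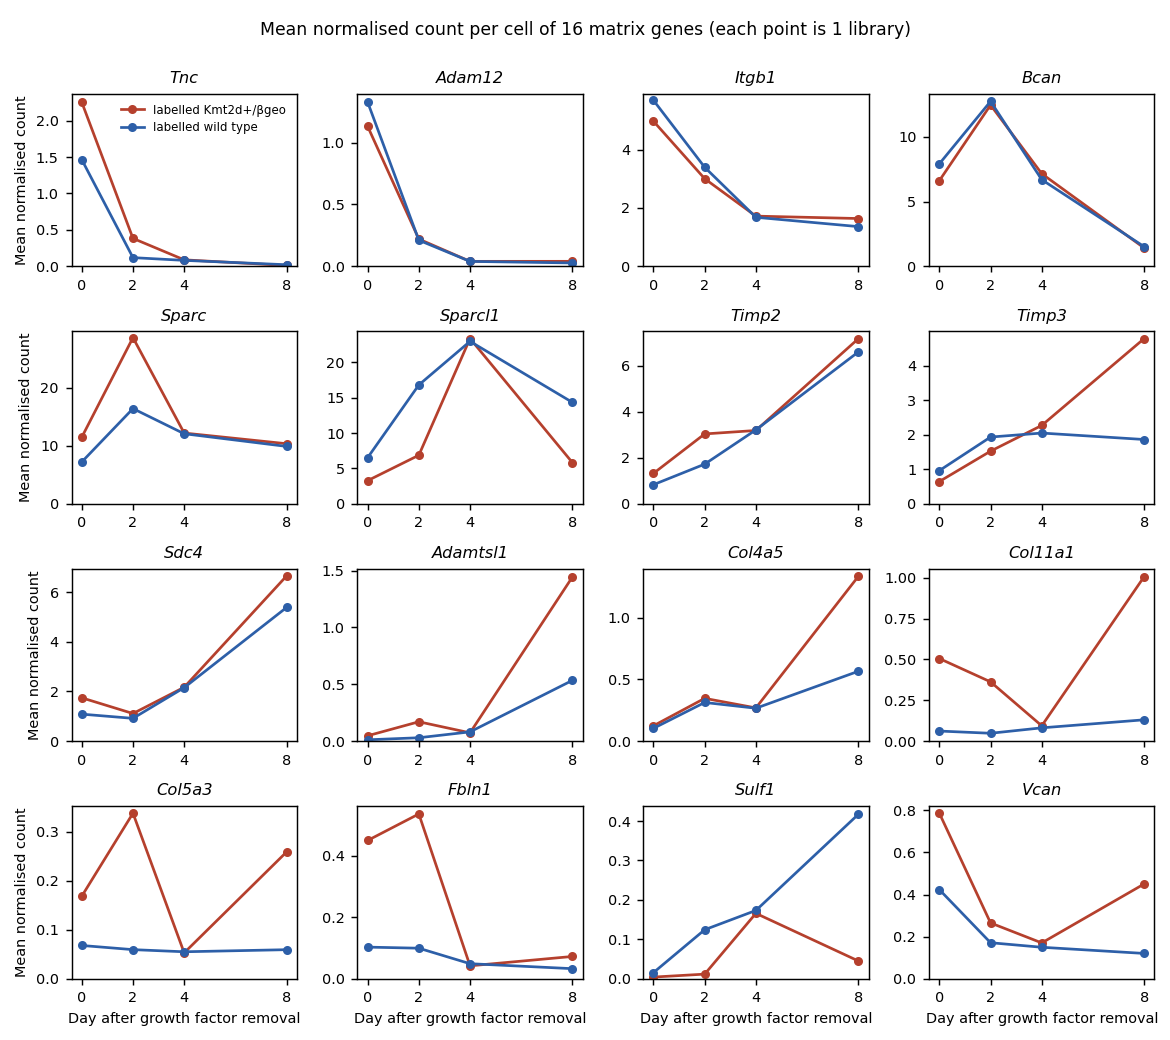
Mean normalised count per cell (vertical axes, from 0, scaled for each gene) of 16 members against the day after growth factor removal, with 1 point per library, red for the Kmt2d+/βgeo label and blue for the wild-type label. Tnc, Adam12, Itgb1 and finally Bcan run down, Timp2, Sdc4, Adamtsl1 and Col4a5 run up, and the curves of the labels meet on day 4.

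Among fibrillar collagens, which form or nucleate fibrils, 2 of 5 parted the labels by 2-fold. Of all genes, 6.79% did so on any of days 0, 2 and 8. Col11a1 (ENSMUSG00000027966, chr3:114030540-114220718), the alpha chain that seeds thin collagen fibrils, stood at 0.505, 0.363, 0.0938 and 1.01 on days 0, 2, 4 and 8 under the Kmt2d+/βgeo label and at 0.0617, 0.0482, 0.0814 and 0.131 under the wild-type label. The libraries with the Kmt2d+/βgeo label were higher by 3.03, 2.91 and 2.95 on the log2 scale on days 0, 2 and 8, and on day 4 the level under either label was below 0.1. Summed molecules gave a day 0 ratio of 3.06, from 2.90 to 3.22 (2851 against 356 molecules). Col5a3, a collagen V chain (chr9:20770050-20815067), followed the same pattern, at 0.169, 0.338, 0.0526 and 0.259 under the Kmt2d+/βgeo label against 0.0677, 0.0592, 0.0548 and 0.0591 under the wild-type label, with ratios of 1.32, 2.52 and 2.13 on days 0, 2 and 8. Under the wild-type label Col5a3 was nearly flat over the days and Col11a1 rose slightly past 2-fold to day 8 (1.08), and the day 4 library labelled Kmt2d+/βgeo sat at the wild-type level of both genes.

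The other fibrillar chains were not past 2-fold between the labels wherever they were compared. Col5a2, the chain with the highest level of the 5, lay between 0.428 and 1.14 in all libraries and was within 2-fold in each of the 8 comparisons. Col5a1 rose to day 8 in both labels (1.08 and 2.18) from a low level. Col27a1 rose to day 2 under the Kmt2d+/βgeo label (2.19), where it was still higher on day 8 (1.83). Its ratios under the wild-type label were 0.95 and 0.77.

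Collagen IV, the network collagen of basement membranes, split by gene pair. Col4a5 stood at 0.125, 0.347, 0.270 and 1.34 under the Kmt2d+/βgeo label and 0.104, 0.314, 0.267 and 0.567 under the wild-type label, and rose to day 8 by 3.42 and 2.45. Its neighbour Col4a6 stood at 0.00791, 0.0579, 0.0487 and 0.376 under the Kmt2d+/βgeo label and 0.00984, 0.0483, 0.0475 and 0.234 under the wild-type label, and rose by 5.57 and 4.57, from 44 and 62 molecules on day 0. Both genes of the X-linked pair thus rose in both labels, and the Col4a5 rise left the Kmt2d+/βgeo library higher on day 8 (1.24). Col4a1 stood at 0.863, 1.23, 0.599 and 0.318 under the Kmt2d+/βgeo label and 0.649, 0.883, 0.545 and 0.354 under the wild-type label, and fell to day 8 under the Kmt2d+/βgeo label (-1.44), with a ratio of -0.88 under the wild-type label. Col4a2, whose first bases lie beside those of Col4a1, gave -1.15 and -0.51. So under the Kmt2d+/βgeo label 1 pair fell while the other rose, and under the wild-type label the rise alone passed 2-fold. All 4 promoter windows hold a GC box.

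The remaining collagens were low. Col28a1, a collagen known from Schwann cells, had the steepest course of these, at 0.321, 0.314, 0.0359 and 0.0346 under the Kmt2d+/βgeo label and 0.607, 0.175, 0.0399 and 0.0136 under the wild-type label, and fell by 3.21 and 5.48 on the log2 scale to day 8. Col16a1, a fibril-associated collagen, lay between 0.134 and 0.298 and passed 2-fold in none of the 8 comparisons. Col9a1, Col22a1 and Col23a1 stayed below 0.1 in every library, and Col4a3bp, no collagen, kept between 0.184 and 0.279. Of the laminins, the basement membrane trimers that Matrigel also contains, Lamc1 stood at 0.758, 1.45, 0.739 and 1.42 under the Kmt2d+/βgeo label and 0.587, 0.666, 0.655 and 0.722 under the wild-type label and was higher under the Kmt2d+/βgeo label on day 2 (1.12), with 0.97 on day 8. Lama5 lay between 0.0904 and 0.353 and within 2-fold in each comparison.

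Fibulin 1 and fibronectin are glycoproteins that join basement membranes and elastic fibres to cells. Fbln1 (chr15:85205949-85286535) stood at 0.450, 0.536, 0.0414 and 0.0719 on days 0, 2, 4 and 8 under the Kmt2d+/βgeo label and at 0.102, 0.0988, 0.0483 and 0.0321 under the wild-type label. Its ratio between the labels was 2.14 on day 0 and 2.44 on day 2, after which both libraries were below 0.1, and it fell to day 8 in both (-2.65 and -1.67). Fn1 stood at 0.235, 0.204, 0.218 and 0.723 under the Kmt2d+/βgeo label and 0.182, 0.0773, 0.196 and 0.251 under the wild-type label. It was higher under the Kmt2d+/βgeo label on day 2 (1.40), when the wild-type level dipped, and on day 8 (1.53), when the Kmt2d+/βgeo level rose.

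Heparan sulphate proteoglycans hold growth factors such as FGF2 at the cell surface, and the sulphatases Sulf1 and Sulf2 strip the sulphate groups that bind them. Sulf1 (ENSMUSG00000016918, chr1:12692277-12861192) stood at 0.00373, 0.0112, 0.166 and 0.0447 under the Kmt2d+/βgeo label and at 0.0152, 0.124, 0.173 and 0.417 under the wild-type label. It was lower under the Kmt2d+/βgeo label by 3.47 on the log2 scale on day 2 (50 against 462 molecules) and by 3.22 on day 8 (61 against 1070), while the day 4 libraries were level (-0.06). The wild-type series thus climbed on every day sampled, and the other series was highest on day 4. Sulf2 took another course, at 1.72, 0.799, 1.06 and 1.75 under the Kmt2d+/βgeo label and 2.39, 1.05, 1.08 and 2.71 under the wild-type label, falling to day 2 in both labels (-1.11 and -1.18) and regaining its day 0 level by day 8.

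Both syndecans rose. Syndecan 4 (Sdc4), a coreceptor in focal adhesions, stood at 1.75, 1.11, 2.17 and 6.65 under the Kmt2d+/βgeo label and 1.09, 0.918, 2.15 and 5.38 under the wild-type label and rose to day 8 by 1.93 and 2.31. Syndecan 2 (Sdc2) rose to day 2 (1.51 and 1.21) and stayed up on day 8 (1.29 and 2.13). Glypican 4 (Gpc4), a lipid-anchored proteoglycan that astrocytes release to promote synapses, peaked on day 2, at 0.225, 0.861, 0.357 and 0.270 under the Kmt2d+/βgeo label and 0.265, 0.656, 0.328 and 0.515 under the wild-type label, a rise of 1.94 and 1.31. Gpc6 fell to day 8 under the wild-type label (-1.57, with -0.86 under the other), and Gpc3 stayed below 0.1.

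Integrins are the heterodimeric receptors that grip collagen, laminin and fibronectin. The beta 1 subunit Itgb1, partner of most alpha chains here, stood at 4.97, 3.001, 1.72 and 1.64 on days 0, 2, 4 and 8 under the Kmt2d+/βgeo label and at 5.68, 3.39, 1.68 and 1.36 under the wild-type label. It fell by 1.60 and 2.06 on the log2 scale to day 8. The subunits Itgb5 and Itgb8, which pair with the alpha V chain and bind vitronectin or latent TGF-β, went the other way. Itgb8 stood at 0.847, 1.38, 2.60 and 2.98 under the Kmt2d+/βgeo label and 0.747, 1.76, 2.37 and 2.66 under the wild-type label, a rise of 1.81 and 1.83 to day 8, and Itgb5 rose by 1.44 and 1.63. Their partner Itgav lay between 0.475 and 0.983 and passed 2-fold in none of the 8 comparisons.

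Of 9 alpha chains, 3 rose from low levels to day 8 in both labels. Of all genes, 19.0% and 16.3% were higher on day 8 under the Kmt2d+/βgeo and wild-type labels, and 996 genes were higher under both. Itga2b, best known from platelets, stood at 0.0348, 0.0820, 0.122 and 0.283 under the Kmt2d+/βgeo label and 0.0222, 0.0593, 0.125 and 0.318 under the wild-type label and rose by 3.02 and 3.84 to day 8. The laminin receptor chain Itga7 stood at 0.0273, 0.0456, 0.110 and 0.175 under the Kmt2d+/βgeo label and 0.00949, 0.0390, 0.111 and 0.164 under the wild-type label and rose by 2.68 and 4.11. The collagen receptor chain Itga2 stood at 0.0207, 0.0468, 0.165 and 0.1 under the Kmt2d+/βgeo label and 0.0264, 0.105, 0.142 and 0.236 under the wild-type label and rose by 2.28 and 3.16. Itga2 was also lower under the Kmt2d+/βgeo label on day 2 (-1.17) and day 8 (-1.24). Itga1 fell to day 8 under the Kmt2d+/βgeo label (-1.05, with -0.23 under the other), but its span overlaps another gene on the same strand, which makes its count uncertain. Itga6, the laminin receptor chain of neural stem cells, lay between 0.540 and 1.04 and passed 2-fold in no comparison, and Itga5, Itga8 and Itga9 stayed below 0.1. The integrin-associated Itgb1bp1 and Itgb3bp stood between 0.492 and 0.974 and passed 2-fold in no comparison.

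ADAM proteases shed proteins from the cell surface. Adam10, the sheddase that cuts Notch and N-cadherin, stood at 0.844, 0.727, 0.706 and 1.48 under the Kmt2d+/βgeo label and 0.795, 0.728, 0.650 and 0.958 under the wild-type label. It passed 2-fold in none of the 8 comparisons, nor did Adam15 or Adam17. Adam12 fell in both labels, with levels of 1.13, 0.221, 0.0404 and 0.0406 on days 0, 2, 4 and 8 under the Kmt2d+/βgeo label and 1.33, 0.211, 0.0400 and 0.0275 under the wild-type label. It fell by 4.80 and 5.60 on the log2 scale to day 8. Adam19 fell likewise, by 3.43 and 3.48. Adam9 rose to day 8 under the Kmt2d+/βgeo label (1.15, with 0.54 under the other). Adam22, a neuronal protein without protease activity, rose to day 8 under the wild-type label (1.01, with 0.86 under the other).

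The ADAMTS family cuts lecticans and procollagens, and its ADAMTSL members lack the protease domain. Adamtsl1 (chr4:85514172-86428385) stood at 0.0473, 0.171, 0.0733 and 1.44 under the Kmt2d+/βgeo label and at 0.0119, 0.0299, 0.0815 and 0.535 under the wild-type label. It rose to day 8 by 4.93 and 5.49 and was higher under the Kmt2d+/βgeo label on day 2 (2.51) and day 8 (1.43). Its span overlaps Sh3gl2 on the same strand, so its count is uncertain. Adamts12 stood at 0.212, 0.382, 0.245 and 0.106 under the Kmt2d+/βgeo label and 0.344, 0.452, 0.222 and 0.0496 under the wild-type label, and fell to day 8 under the wild-type label (-2.80, with -0.998, just short of 2-fold, under the other). Adamts10 was higher under the Kmt2d+/βgeo label on day 2 (1.46) and fell in both by day 8 (-2.64 and -3.06). Adamts1 was also higher under the Kmt2d+/βgeo label on day 2 (1.27). The lectican-cleaving Adamts5 fell to day 8 under the wild-type label (-1.92, with -0.46 under the other), and Adamts9 rose under the Kmt2d+/βgeo label (1.12, with 0.37). Adamts6 passed 2-fold in none of the 8 comparisons.

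The membrane-type metalloproteinase Mmp15 fell in both labels, with levels of 1.42, 0.601, 0.534 and 0.408 under the Kmt2d+/βgeo label and 1.52, 0.718, 0.509 and 0.452 under the wild-type label. It fell by 1.80 and 1.75 on the log2 scale to day 8. Mmp14, the activator of MMP2 and a collagenase, was lower under the Kmt2d+/βgeo label on day 0 (-1.06), and it fell to day 8 under the wild-type label (-1.12). Mmp16 lay between 0.219 and 0.433 and passed 2-fold in no comparison. Of the inhibitors, Timp2 stood at 1.32, 3.04, 3.19 and 7.18 on days 0, 2, 4 and 8 under the Kmt2d+/βgeo label and at 0.831, 1.72, 3.21 and 6.61 under the wild-type label, a rise of 2.44 and 2.99 to day 8. Timp3, which binds to the matrix and blocks ADAM and ADAMTS proteases as well, stood at 0.644, 1.52, 2.27 and 4.79 under the Kmt2d+/βgeo label and 0.961, 1.93, 2.05 and 1.86 under the wild-type label. Timp3 rose to day 2 in both labels (1.24 and 1.01) and by 2.89 to day 8 under the Kmt2d+/βgeo label (0.955 under the wild-type label, short of 2-fold), which left that library 1.36 above the wild-type library.

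Between the labels, members parted by 2-fold on days 0, 2 and 8. On day 0, 3 of 48 members (6.25%) were higher under the Kmt2d+/βgeo label (Col11a1, Fbln1 and Col5a3), against 0.674% of all genes, and 1 (2.08%) was lower (Mmp14), against 0.871% of all genes. With summed molecules in place of means per cell, that day 0 split became 3 higher and 3 lower. On day 2, 9 of 54 members (16.7%) were higher, against 1.68% of all genes, and 3 (5.56%) were lower, against 1.15%. On day 8, 8 of 50 members (16%) were higher, against 2.06% of all genes, and 3 (6.00%) were lower, against 2.81%. The members' median log2 ratio was -0.0184, 0.0385, 0.0820 and 0.231 on days 0, 2, 4 and 8, beside -0.0371, -0.00199, 0.0426 and 0.0107 over all genes. The members' median lay above that of all genes on each day, with the widest gap on day 8.

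Across days 0, 2 and 8, Col11a1 and Col5a3 were higher under the Kmt2d+/βgeo label on all 3, Adamtsl1, Fbln1 and Fn1 on 2, and Sparcl1, Sulf1 and Itga2 were lower on 2. On day 4 Col11a1, Col5a3, Adamtsl1 and Fbln1 were below the minimum in both libraries and were not compared, and the ratios of the other 4 lay between -0.06 (Sulf1) and 0.22 (Itga2). The day 8 members that were higher under the Kmt2d+/βgeo label also include Vcan, Timp3, Col4a5 and Adamts12, and those of day 2 include Tnc, Adamts10, Adamts1 and Lamc1. The median depth of the day 8 libraries differed (3972 against 6989 molecules per cell over the genes used), and thinning each cell to 3000 molecules left out 757 and 5 cells of them. After thinning, 8 members were higher and 4 lower on day 8 (the share of all genes after thinning was not computed), and the Adamts12 ratio became 0.785.

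**Figure D4:**
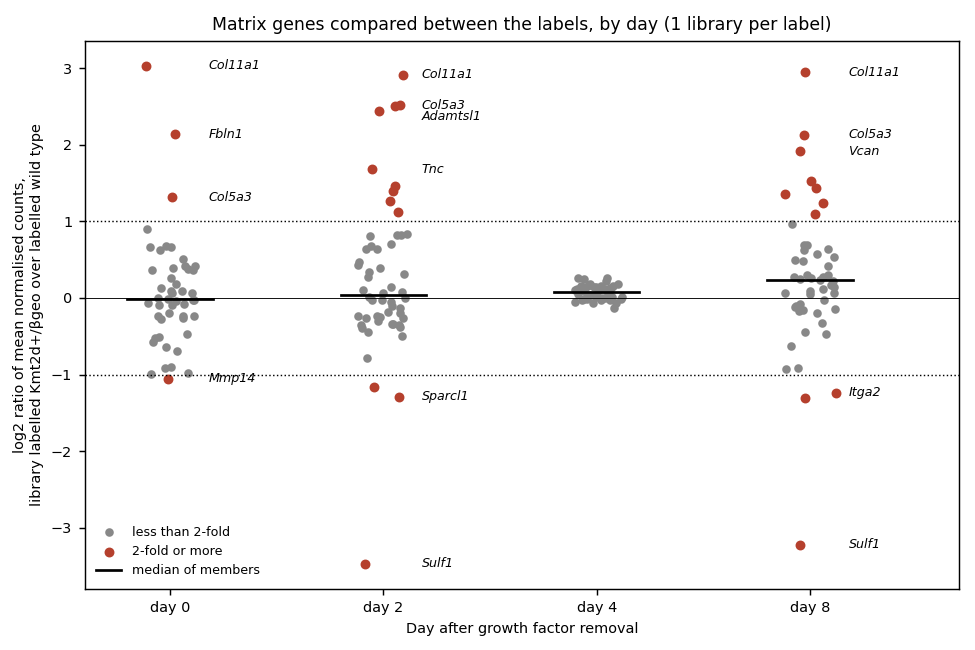
Log2 ratio of mean normalised counts, library labelled Kmt2d+/βgeo over library labelled wild type (vertical axis), for each member compared on days 0, 2, 4 and 8 (horizontal axis, points spread sideways at random), with members past 2-fold (dotted lines) in red and the members' median as a black bar. Col11a1 is the highest point on days 0, 2 and 8, Sulf1 the lowest on days 2 and 8, and on day 4 all points lie between -0.13 and 0.27.

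Sparcl1 and Sparc have levels high enough for their spread from cell to cell to be described. With each cell thinned to 3000 molecules, the variance of Sparcl1 over its mean was 6.11 in the wild-type library of day 2, where 1 is the value for random sampling of equal cells and 1.03 the median of all genes, whatever their level. In that library 19.7% of cells had no Sparcl1 molecule, against 0.312% for equal cells of the same mean. The same ratio was 3.87 in the Kmt2d+/βgeo library of day 2, 4.75 and 4.64 on day 4, 2.42 and 2.43 on day 8, and 2.23 and 2.66 on day 0. For Sparc it was 4.53 and 3.20 on day 2. This ratio grows with the mean, so it is not compared between members or libraries of unlike level. The Sparcl1 mean was 1.12 and 2.24 thinned molecules on day 0 (Kmt2d+/βgeo label first), 2.38 and 5.77 on day 2, 8.07 and 7.93 on day 4, and 2.06 and 4.93 on day 8. Free RNA was not measured, since no cell type that lacks Sparcl1 was at hand.

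**Figure D5:**
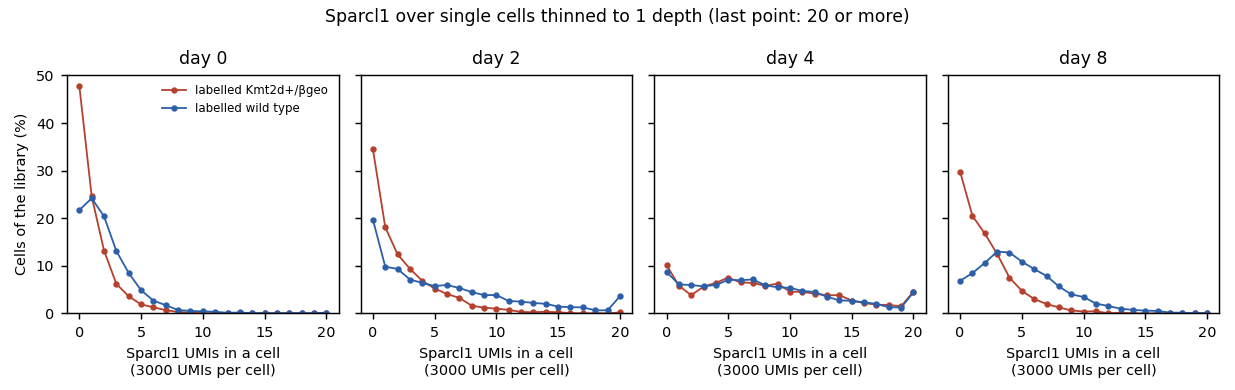
Percent of cells in a library (vertical axis) with a given number of Sparcl1 molecules after thinning each cell to 3000 molecules (horizontal axis, 20 standing for 20 or more), by day and label. On days 0, 2 and 8 the curve of the Kmt2d+/βgeo label lies to the left of the wild-type curve, and on day 4 the curves run together.

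Cells with an Olig2 molecule, a transcription factor of progenitors and the oligodendrocyte lineage, were compared with cells without one in the same library after thinning, as a description, because all cells of a library share their culture. In the wild-type library of day 2, Sparcl1 was 4.13 thinned molecules per cell in 2703 cells with Olig2 and 8.95 in 1395 cells without (log2 ratio -1.12). The Sparcl1 ratio was -0.90 under the Kmt2d+/βgeo label on day 2 and -0.98 and -0.94 on day 4, and it was nearer to 0 on day 0 (-0.26 and -0.29) and day 8 (-0.34 and -0.46). Bcan stood at 0.03 and -0.05 on day 0, -0.20 and -0.26 on day 2, 0.24 and 0.24 on day 4, and 0.44 and 0.68 on day 8. On day 4, Adamts12 was higher in cells with Olig2 (1.47 and 1.72), as were Adamts5 (1.61 and 1.79) and Col28a1 (2.63 and 1.32, from 8 to 26 molecules a side), and Adamtsl1 (-1.32 and -1.08) and Itga1 (-1.44 and -1.24, with the uncertain count named above) were lower. In all, 3 members were higher and 6 lower in the Kmt2d+/βgeo library, and 5 higher and 2 lower in the wild-type library. These day 4 counts compare with 3.80% and 3.35% of all genes past 2-fold in either direction, against 16.7% and 12.7% of members. In the Olig2 splits of day 0 the members' shares were 0% and 0%, against 0.215% and 0.553% of all genes. On day 2 they were 12.9% and 14.3%, against 2.06% and 2.41%. On day 8 they were 5.17% and 14%, against 1.64% and 5.16%. In day 0 cells with a molecule of Top2a, a marker of dividing cells, Col27a1 was the 1 member past 2-fold (-1.42 and -1.22, from 15 and 28 molecules on the Top2a side). That is 1.79% and 1.85% of members, below the 2.64% and 2.60% of all genes.

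Genes that work with the members but carry other names were counted from fixed lists. Of the collagen folding and crosslinking genes, 12 of 24 are in the table. Of the 9 or 10 compared on a day, 0 passed 2-fold between the labels, where at most 2.81% of all genes passed it in either direction taken alone. The prolyl hydroxylase subunit P4ha3 rose to day 8 (3.51 and 2.91 in the Kmt2d+/βgeo and wild-type labels), while P4hb (-1.26 and -1.68), P3h1 (-1.34 and -1.47) and the lysyl hydroxylase Plod1 (-1.12 and -1.41) fell. Of the hyaluronan and other proteoglycan genes, 6 of 24 are in the table, and the basement membrane linker Nid2 (2.12 and 2.22) and the hyaluronan receptor Cd44 (2.26 and 1.01) rose to day 8 in both labels. Cd44 was also higher under the Kmt2d+/βgeo label on day 8 (1.04), and Cspg5, a brain proteoglycan, fell to day 8 under the wild-type label (-1.53). Of the heparan and chondroitin sulphate synthesis genes, 18 of 28 are in the table, and to day 8 the sulphotransferase Ndst1 rose in both labels (2.02 and 1.83), whereas Hs6st2 (-2.31 and -3.56), Xylt1 (-2.07 and -2.44) and Chsy1 (-1.50 and -1.44) fell in both. Hs6st2 was the 1 gene of the list past 2-fold between the labels, higher under Kmt2d+/βgeo on day 2 (1.40), which is 1 of 15 compared, against 1.68% of all genes.

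Integrin adhesion complex genes, of which 18 of 22 are in the table, held 4 higher and 2 lower genes by day 8 under the Kmt2d+/βgeo label (against 19.0% and 13.9% of all genes) and 5 higher and 1 lower under the wild-type label (against 16.3% and 10.9%). The docking protein Bcar1 rose in both (1.85 and 2.05) and zyxin (Zyx) fell in both (-1.31 and -1.71). The actin crosslinker Actn1 was higher under the Kmt2d+/βgeo label on day 0 (1.24). Of the elastic fibre and matricellular genes, 10 of 24 are in the table. The fibrillin Fbn2 fell by 5.78 and 4.42 on the log2 scale to day 8, Fbn1 by 1.40 and 1.51, and Smoc2 was higher under the Kmt2d+/βgeo label on day 8 (2.18), as was Ccn1 on day 2 (1.65). Of the plasminogen system, 2 of 7 are in the table: the protease inhibitor Serpine2 fell to day 8 in both (-1.44 and -1.47), and the activator Plat rose to day 2 (1.10 and 1.19). On day 4 none of these list members passed 2-fold between the labels.

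Finally, 22 of the 68 members passed 2-fold in none of the 8 comparisons, and 9 of these (Adam23, Adamtsl3, Col22a1, Col23a1, Col9a1, Gpc3, Itga5, Itga8 and Itga9) were too low to be compared in any. The other 46 passed it at least once, which is 78.0% of the 59 compared in any, against 44.7% of all genes.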

How the data were processed

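The deposited expression values are log2 of size-factor-normalised counts plus 1, which the authors made from droplet 3′ libraries with Alevin and Salmon 1.3.0 (GRCm38, per the submitters' processing notes, which also list Seurat 3.2.2), using spliced counts. A total UMI number per cell, an estimated count, was deposited by the authors alongside cell-cycle and embedding coordinates, which were not used. The authors kept cells with at least 200 genes that lay within 3 median absolute deviations in depth, gene number, mitochondrial share and doublet score, so likely doublets had been taken out before deposit, and kept genes found in at least 20 cells. Values were returned to the linear scale and averaged per library. What 1 molecule was worth in each cell was read from the values (86.75% of the non-zero values came out within 0.01 of a whole molecule). No column was left unmapped.

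Ratios of library means were compared at 2-fold with a minimum mean of 0.1. Exact conditional 95% intervals on the estimated UMIs cover counting error only. With 1 library per group no p-value was computed. Alternatives were another minimum (0.5 or none), differences of mean log2 values, summed UMIs, thinning to 3000 UMIs (784 cells left out) and centring on the median gene. The ratio procedure was also run on simulated cells that, within a group, differed only in depth and random sampling. That run held no variation between libraries, so it does not bear on such variation.

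Genes were named by a rule: the members with the highest mean in each role group, those past 2-fold between the labels on at least 2 of days 0, 2 and 8, and the largest shared rises and falls. Other members were chosen after their values were seen. The members, lists and motifs were chosen with earlier results of these data known. Identifiers of all 68 members were found in GENCODE M21, 67 with the same coordinates. Promoters come from RefSeq (GRCm38.p6). Python 3.11.15, NumPy 2.4.6, SciPy 1.17.1, pandas 2.3.3 and matplotlib 3.10.9 were used.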

Additional observations from a re-analysis of the deposited data

Results flagged for a closer look

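For 2 members the ratio between the labels (Kmt2d+/βgeo over wild type) had opposite signs on 2 days, with at least 1 on the log2 scale on a day, at least 0.5 on the other and counting intervals on the same side of 0 as the ratios. The log2 ratio of Adamts12 was -0.70 on day 0 and 1.10 on day 8, and that of Timp3 was -0.58 on day 0 and 1.36 on day 8. For the summed UMIs the exact 95% intervals were -0.78 to -0.57 and 0.65 to 1.36 for Adamts12, and -0.73 to -0.61 and 1.19 to 1.303 for Timp3, and they cover counting error only. Neither Timp3 interval holds the ratio given above, because the ratio is of means over cells of normalised counts and the interval is for summed UMIs, in which deeper cells weigh more. With 1 library per label and day the difference between the days was not tested. How many of all genes meet the same rule was not counted. After thinning, the day 8 ratio of Adamts12 was no longer past 2-fold, so its flag holds under the main setting and not after thinning.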

How the results depend on the processing

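The 2-fold counts of members depend on the scale and on the minimum level. The share of all genes past 2-fold was not computed under these alternatives. Whether members pass 2-fold more often than all genes under them was therefore not tested. On differences of mean log2 values, which by construction shrink the ratio of genes that most cells lack, the counts of members past 2-fold were 0, 1 and 1 between the labels on days 0, 2 and 8 (4, 12 and 11 as reported). From day 0 to day 2 they were 2 under the Kmt2d+/βgeo label and 1 under the wild-type label (19 and 21 as reported), and from day 0 to day 8 they were 6 and 6 (30 and 31 as reported). The single members left on days 2 and 8 between the labels were lower, and the members left over time split evenly, except for 1 higher member on day 2 under the wild-type label. With a minimum mean of 0.5, which leaves fewer genes compared, they were 1, 3 and 6 between the labels, 12 for day 2 under the Kmt2d+/βgeo label, and 16 and 14 for day 8. With no minimum, which takes in members below 0.1 in both libraries, the day 0 count between the labels was 11. On day 4 the count was 0 under all 6 alternatives. Of 108 named ratios past 2-fold, 0 reversed under the 4 alternatives that give a ratio. A value counts as moved where it differed from the main ratio by more than 0.5 times the width of the counting interval. Moved were 108 on mean log2 differences, 26 on summed UMIs, 22 after thinning and 13 after centring. Past 2-fold no longer were 91 on mean log2 differences, 3 after thinning (Adamts12 between the labels on day 8, Col5a3 and Timp3 from day 0 to day 2 under the Kmt2d+/βgeo and wild-type labels) and 1 after centring on the median gene (Col5a3, as before). The cause of these 4 was not tested. A fit over both labels with day as a block, which would take days as replicates, was not run. Depth limits the low members: on day 8 Tnc rests on 24 and 61 molecules.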

Other observations

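Differences of 2-fold between the sides of a split by Gja1, an astrocyte gap junction gene, were looked at among the members on day 2. Cells with a Gja1 molecule had less Tnc than cells without (-1.81 and -1.12 in the Kmt2d+/βgeo and wild-type libraries), less Adam19 (-2.60 and -1.40) and less Col27a1 (-1.44 and -1.24), from 3 to 24 molecules on the Gja1 side. In these splits 5% and 7.14% of members passed 2-fold, against 2.06% and 1.35% of all genes. The excess was not seen on every day. In the Gja1 splits of day 0 the members' shares were 1.79% and 7.41%, against 3.39% and 2.78% of all genes. On day 4 they were 3.85% and 0%, against 0.952% and 0.678%. On day 8 they were 0% and 0%, against 0.521% and 0.748%. In the wild-type library of day 2 the fibronectin gene Fn1 was higher in cells with Gja1 (1.2995), which had no counterpart past 2-fold under the other label. These are descriptions of cells within 1 library each, and no hypothesis is offered.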
